A study of Mus musculus with 6 samples.

Results

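The cadherin superfamily was examined in sorted cells of the embryonic mouse cortex that carried either a hairpin of the microRNA miR-3607 (Mir) or a scrambled hairpin (Scr). Members were the protein-coding genes named Cdh with a number, Pcdh, Celsr1 to Celsr3, Dchs1 and Dchs2, or Fat1 to Fat4 that had at least 10 counts in at least 3 of the 6 libraries. Of 54146 genes in the count tables, 101 had such a name and 81 passed the count rule. These 81 comprised 32 genes outside the protocadherin clusters, 8 of the 14 genes of the Pcdha cluster, 20 of the 22 of the Pcdhb cluster and all 21 of the Pcdhg cluster. The clustered genes are reported apart, because the genes of the Pcdha cluster, and likewise those of the Pcdhg cluster, share their last exons. A single gene with a matching name but annotated as a polymorphic pseudogene was left out.

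Cadherins are adhesion proteins of the cell surface whose extracellular repeats bind calcium and pair with cadherins of the neighbouring cell. Classic cadherins hold adherens junctions together through catenins, which tie them to actin, and in the embryonic cortex such junctions ring the apical ends of radial glia at the ventricle. Protocadherins give neurons a surface identity, Celsr proteins act in planar cell polarity, and the giant Fat and Dachsous proteins pair as receptor and ligand between neighbouring cells.

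Both groups were wild-type mouse embryos electroporated in utero at embryonic day E14.5, and GFP-positive cells were sorted 24 hours later, at E15.5. Each of the 3 Mir libraries came from cells that had received a GFP plasmid under the CAG promoter at 0.7 µg/µl and, at 1 µg/µl, a plasmid in which the U6 promoter drives the miR-3607 precursor hairpin. Each of the 3 Scr libraries came from cells with the same GFP plasmid and, also at 1 µg/µl, the vector maker's control plasmid, whose hairpin has no match in the mouse genome per the labels. A library held the pooled cells of 2 embryos, so p-values measure the spread between such pools. The strain is labelled both ICR and C57BL/6, and the level of the microRNA itself was not analysed here. The sort selects cells by plasmid uptake and not by cell type.

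Counts in genes ranged from 12724511 to 16684038 per library. The sample label was cortical progenitors. All 12 radial glial and all 8 intermediate progenitor markers were above 0 in every library, as were all 10 markers of cortical neurons. Being above 0 therefore cannot tell progenitors from neurons here. Markers of other cells varied between libraries of a group. The 12 inhibitory neuron markers summed to 222, 205 and 492 CPM (the usual depth-scaled count, on normalized library sizes) in Mir replicates 1, 2 and 3, and to 372, 1415 and 519 CPM in Scr replicates 1, 2 and 3, with all 12 lower in the Mir mean. The 13 endothelial markers summed to 5.53, 5.75 and 58.6 CPM in Mir and to 132, 305 and 19.2 CPM in Scr, with 8, 8 and 0 markers at 0 counts in Mir and 0, 0 and 1 in Scr. Scr replicate 2 was the highest library in both sums, and among the 16897 genes tested it was the highest library for 25.2%. Radial glial markers summed to 2301, 2842 and 3058 CPM in Mir and to 2195, 1637 and 2351 CPM in Scr, and intermediate progenitor markers to 4105, 4418 and 3034 CPM in Mir and to 3365, 2173 and 2866 CPM in Scr. Fewer cells of a type and less RNA per cell cannot be told apart in such bulk libraries.

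No member passed the adjusted threshold of 0.05 in either direction, out of 80 members tested. Over all genes tested, the same edgeR rule called 0% higher and 0.00592% lower in Mir, a single gene. The smallest edgeR adjusted p of a member was 0.244. DESeq2, which called 1.38% of all genes higher and 1.91% lower, called no member, with a smallest adjusted p of 0.0585, and limma-voom, which called 0% of genes either way, called none. At an unadjusted edgeR p under 0.05 there were 3 members with a higher Mir mean (3.75%, against 6.57% of all genes) and 5 with a lower Mir mean (6.25%, against 7.93%). The 3 Mir libraries lay above all 3 Scr libraries for 2 members (2.5%, against 9.72% of all genes) and below them for 10 (12.5%, against 10.3%). These shares were at or under those of all genes, except the last.

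Among the 31 tested members outside the clusters, the fitted log2 fold change (Mir over Scr) was above 0 for 11 and below 0 for 20. Their median was -0.22, against -0.01 over all genes tested, of which 48.8% were above and 51.2% below 0. All Mir libraries lay above all Scr libraries for 1 of the 31 (3.23%, against 9.72% of all genes). They lay below them for 4 (12.9%, against 10.3%). An unadjusted edgeR p under 0.05 was found for 2 with a higher Mir mean, Celsr1 and Cdh20 (6.45%, against 6.57% of all genes). It was also found for 4 with a lower one, Fat3, Cdh13, Pcdh9 and Pcdh19 (12.9%, against 7.93%). These counts of 2 and 4 rested on single libraries: without Mir replicate 2 they were 0 and 1, without Scr replicate 3 there were 0 higher, without Scr replicate 1 there were 4 higher, and without Mir replicate 3 there were 8 lower. The 32 genes also spanned a wide range of levels. Cdh2 (N-cadherin, the main cadherin of the apical junctions of radial glia) was the highest per length, with a mean over the 6 libraries of 50.5 CPM per kb of annotated exons and a range of 42.8 to 58.1 over the libraries. It alone made up 23.7% of the per-length sum of the 32 genes. Cdh8 followed at 25.9, then Pcdh8 at 16.9, Cdh4 at 15.1, Celsr1 at 13.5, Celsr2 at 13.0, Cdh10 at 10.2 and Dchs1 at 9.88 CPM per kb. The ranges of neighbours from Cdh8 to Dchs1 overlapped, and that of Cdh2 lay above all of them. The lowest was Pcdh15, a protein of the tip links of inner ear hair cells, at 0.0363 CPM per kb.

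**Figure D1:**
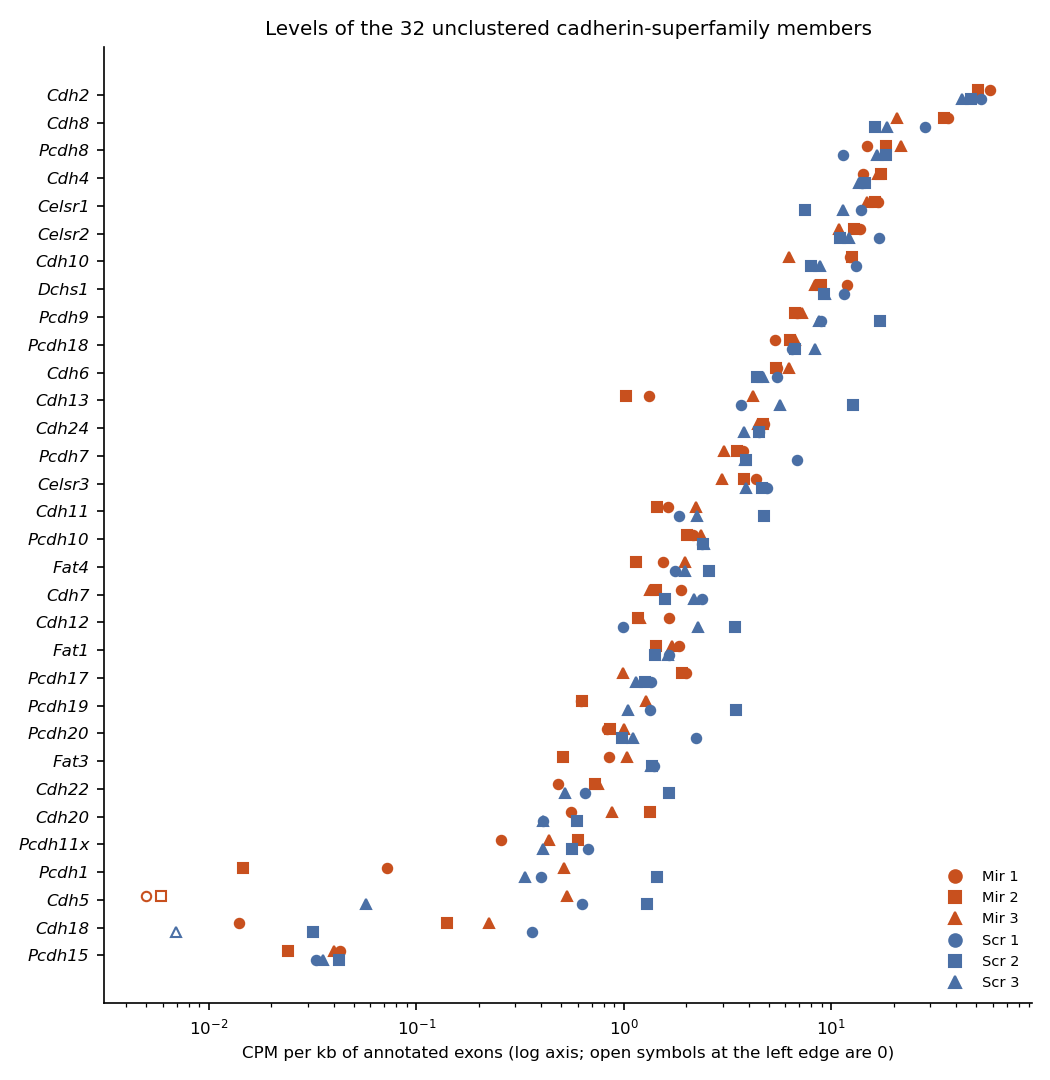
Level of each of the 32 members outside the clusters in each library, as CPM per kb of annotated exons on a log axis, with Mir in orange and Scr in blue and open symbols for 0 counts. Cdh2 lies highest with all 6 libraries close together, while Cdh13, Pcdh1, Cdh5 and Cdh18 spread widely between libraries of the same group.

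Of the 101 matching genes, 20 stayed below the count rule. Of these, 4 were listed at 0 in all 6 libraries: Cdh3, Cdh16, Cdh19 and Fat2. Cdh1 (E-cadherin of epithelia) had a single count, in Scr replicate 1, where 3 counts come to 0.234 CPM. Just inside the rule lay Cdh5 and Cdh18, with 10 counts in 3 libraries each, and just outside it lay Pcdh12, with 10 counts in 2. Cdh18 (a type II cadherin) had 1, 10 and 15 counts in Mir and 21, 2 and 0 in Scr, and the filter before the test left it out.

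The hairpin strand that follows the loop was taken from the oligonucleotide in the labels, because the sites it could pair with are short enough to be read directly in the members' 3' UTRs. Its seed, bases 2 to 8 counted from the 5' end, is in capitals.
miR-3607 hairpin strand: gCATGTGAtgaagcaaatcagt
The matches searched on the transcript strand were TCACATG and CACATGA, which overlap in the match of 8 bases, TCACATGA. A match was present in the 3' UTR of 8 of the 31 tested members outside the clusters (25.8%), against 20.7% of the 12920 tested genes with an annotated 3' UTR. The 3' UTRs of these members were longer, with a median of 2102 nt against 1425 nt. Per kb of 3' UTR the matches were nearly as frequent, at 0.15 against 0.141. Pcdh10 held 4 matches and Cdh6, with 2, held the single match of 8 bases outside the clusters. These 2 genes are shown because they held the most, each with 30 bases of UTR, the match in capitals, from GENCODE M21 on GRCm38.
Pcdh10 site at chr3:45420399-45420428 (plus strand): aaactataaatTCACATGtatttgttgtta
Pcdh10 site at chr3:45422271-45422300 (plus strand): ggaatatttcaTCACATGtaaagttataat
Pcdh10 site at chr3:45423416-45423445 (plus strand): atattacatttTCACATGcaacttaaaaaa
Pcdh10 site at chr3:45423560-45423589 (plus strand): gggtattctaaCACATGAgtttcagtctta
Cdh6 site at chr15:13029575-13029604 (minus strand): caaatgtccttTCACATGAggttatttgac
Cdh6 site at chr15:13033817-13033846 (minus strand): tactgtacattTCACATGctaatggaagaa
The other 6, with 1 match each, were Cdh7, Cdh8, Cdh12, Pcdh7, Pcdh15 and Dchs1. The median log2 fold change was -0.10 for the 8 members with a match and -0.27 for those without, against -0.04 and 0.00 over all genes. None of the 6 members at an unadjusted p under 0.05 held a match. In the clusters a match was present in 3 of 20 Pcdhb genes (15%) and in none of the 8 Pcdha or 21 Pcdhg genes. The Pcdha genes share their last exons, as do the Pcdhg genes, so the search within each largely covered the same bases. A match is a description of letters and does not show that a site is used.

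Both classic type I cadherins among the members had a fitted value slightly above 0. Cdh2 (chromosome 18, 16588877 to 16809246) had 469, 411 and 411 CPM in Mir, against 425, 381 and 346 CPM in Scr. The groups overlapped, with Scr replicate 1 above Mir replicates 2 and 3, and the log2 fold change was 0.16 ± 0.10 (SE; edgeR adjusted p 0.496). Cdh4 (R-cadherin) had 103, 126 and 122 CPM in Mir, against 102, 105 and 98.9 CPM in Scr. Mir replicates 2 and 3 were the highest of the 6, the log2 fold change was 0.20 ± 0.10 and the edgeR adjusted p was 0.414.

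Type II cadherins, which differ from type I in their adhesive interface and mark regions and nuclei of the developing brain, did not share a direction: 5 of the 10 tested had a higher and 5 a lower fitted value. Cdh8, the second highest member and a gene with graded expression across cortical areas, had 284, 271 and 160 CPM in Mir, against 220, 126 and 143 CPM in Scr. Mir replicates 1 and 2 were the highest and Scr replicates 2 and 3 the lowest, with Mir replicate 3 below Scr replicate 1. Its log2 fold change was 0.54 ± 0.27 (edgeR adjusted p 0.400). Cdh20 (ENSMUSG00000050840) had 2.23, 5.37 and 3.53 CPM in Mir, against 1.64, 2.39 and 1.63 CPM in Scr, from 21 to 84 counts a library. Scr replicate 2 lay just above Mir replicate 1, so the groups overlapped. The log2 fold change was 0.97 ± 0.39, the largest above 0 among these members, with an unadjusted edgeR p of 0.0389 and an adjusted p of 0.321. Without Mir replicate 2 it was 0.62. Cdh10 had 124, 126 and 62.6 CPM in Mir, against 133, 80.4 and 88.5 CPM in Scr, with a log2 fold change of 0.05 ± 0.29. Mir replicate 3 was the lowest library for Cdh10 and Scr replicate 1 the highest. Cdh6, which holds the 8-base match shown above, had 49.7, 48.7 and 56.3 CPM in Mir, against 49.6, 39.7 and 42.5 CPM in Scr, a log2 fold change of 0.23 ± 0.12. Cdh7, Cdh11, Cdh12 and Cdh22 had fitted values between -0.74 and -0.40, and Cdh24 one of 0.11, with edgeR adjusted p between 0.397 and 0.769. Cdh11 and Cdh12 were highest in Scr replicate 2, at 42.1 and 21.6 CPM.

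Cdh5 (VE-cadherin, the cadherin of endothelial junctions) was near the count rule. It had 0, 0 and 33 counts in Mir, against 34, 75 and 4 counts in Scr, which come to 0, 0 and 2.24 CPM and to 2.65, 5.43 and 0.241 CPM. A count of 0 allows up to 3 counts, or 0.191 CPM in Mir replicate 1 and 0.192 CPM in Mir replicate 2. The fitted log2 fold change was -1.89 ± 1.49 (edgeR adjusted p 0.593). Pcdh12, another endothelial gene and just below the count rule, had 0, 0 and 7 counts in Mir, against 35, 71 and 3 in Scr. Both followed the order of the summed endothelial markers given above, with ties at 0, and neither gene was in that marker list. Cldn5, a claudin of endothelial tight junctions, had 0, 0 and 8.96 CPM in Mir, against 28.3, 64.9 and 3.91 CPM in Scr. The part of endothelial cells in these values was not tested.

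Cdh13 (ENSMUSG00000031841, T-cadherin, held by a GPI anchor and without a cytoplasmic domain) was the single atypical cadherin among the members, of 5 by name. It lies on chromosome 8 at 118283733 to 119324921. Cdh13 had 14.9, 11.5 and 47.4 CPM in Mir, against 41.4, 143 and 63.5 CPM in Scr, from 180 to 1974 counts. Mir replicates 1 and 2 were the lowest and Scr replicate 2 the highest, while Mir replicate 3 lay above Scr replicate 1. The means were 24.6 ± 19.8 CPM in Mir and 82.6 ± 53.4 CPM in Scr (SD, n = 3 each), a log2 fold change of -1.75 ± 0.62 with an unadjusted edgeR p of 0.0243 and an adjusted p of 0.284. Without Scr replicate 2 the log2 fold change was -1.10, and without Mir replicate 3 it was -2.66. With both left out, which leaves 2 libraries in each group, it was -2.0 with an edgeR adjusted p of 0.0482. This was the single setting in which any member passed the threshold. Scr replicate 2 was the highest library, and Mir replicate 3 was the single Mir library above any Scr library. Leaving them out removes the overlap between the groups, so this setting cannot test the Cdh13 difference. The 6 libraries stood in the same order for Cdh13 as for the summed inhibitory neuron markers, as they did for Cdh11 and Fat4. Of all genes tested, 1.28% had that order. The part of inhibitory neurons in these values was not tested.

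**Figure D2:**
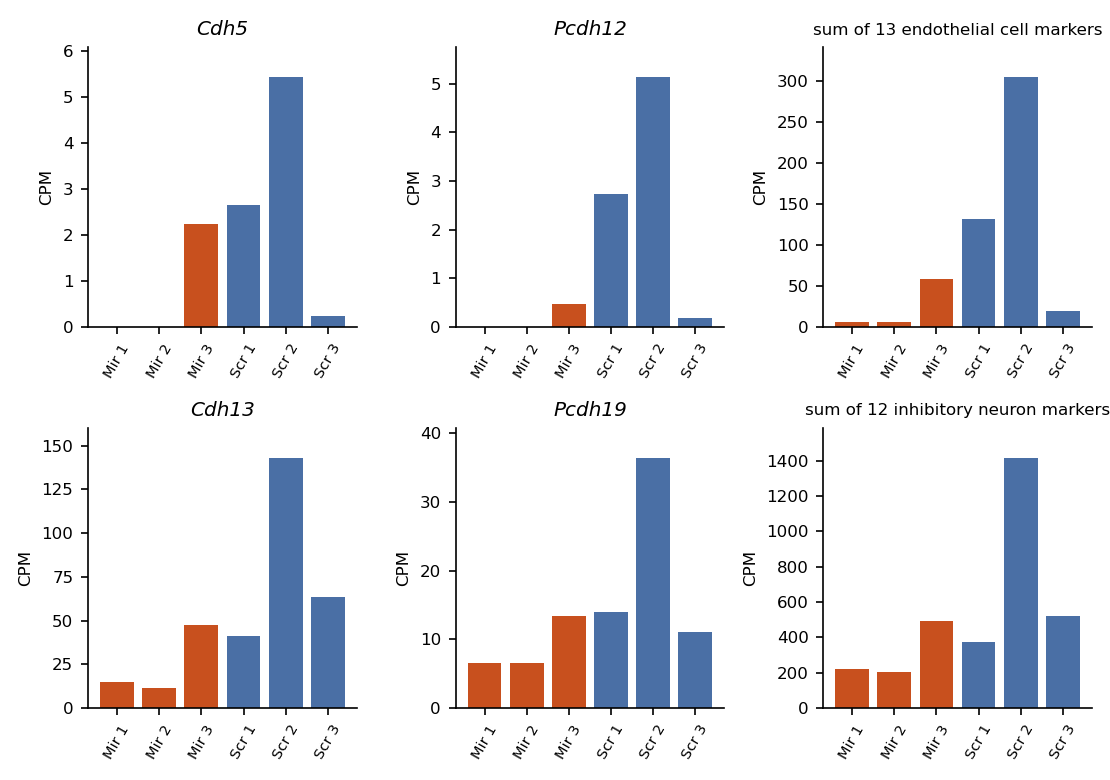
CPM of Cdh5 and Pcdh12 beside the sum of 13 endothelial markers (top row) and of Cdh13 and Pcdh19 beside the sum of 12 inhibitory neuron markers (bottom row), a bar for each library, Mir in orange and Scr in blue, each axis starting at 0. Scr replicate 2 is the highest bar in all 6 panels, and Mir replicates 1 and 2 are the 2 lowest. The full order of the 6 libraries for Cdh13 is that of the inhibitory neuron sum. For Pcdh19 it is that of the endothelial sum and not of the inhibitory neuron sum beside it.

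All 4 delta-1 protocadherins, which carry a cytoplasmic site for a protein phosphatase, had a fitted value below 0. Pcdh9 (ENSMUSG00000055421, chromosome 14, 93013410 to 93890679) had 46.6, 45.2 and 48.9 CPM in Mir, against 60.4, 117 and 59.3 CPM in Scr. The groups did not overlap, the Mir libraries were close together and Scr replicate 2 stood far above the rest. The log2 fold change was -0.75 ± 0.26, with an unadjusted edgeR p of 0.0206, an edgeR adjusted p of 0.276 and a DESeq2 adjusted p of 0.0704. Without Scr replicate 2 it was -0.35. Pcdh7 had 40.0, 37.1 and 32.2 CPM in Mir, against 72.4, 41.2 and 40.7 CPM in Scr, a log2 fold change of -0.49 ± 0.23 (edgeR adjusted p 0.382). All 3 Mir libraries lay below all 3 Scr libraries, by less than 1 CPM between Mir replicate 1 and Scr replicate 3, and Scr replicate 1 stood apart. Without Scr replicate 1 it was -0.17. Genes on the opposite strand cover 21.1% of the exon bases of Pcdh7, and without strand their reads cannot be told apart. Pcdh1 had 0.636, 0.128 and 4.55 CPM in Mir, against 3.51, 12.7 and 2.95 CPM in Scr, with a log2 fold change of -1.85 ± 1.06. Mir replicates 1 and 2 were again the lowest and Scr replicate 2 the highest. Pcdh11x, on the X chromosome, overlapped between groups with a log2 fold change of -0.34 ± 0.35.

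The 5 delta-2 protocadherins, whose cytoplasmic tails bind the WAVE regulator of actin, had 2 fitted values above and 3 below 0. Pcdh8, the highest of them per length, had 67.2, 83.5 and 98.5 CPM in Mir, against 51.8, 83.7 and 75.1 CPM in Scr, a log2 fold change of 0.24 ± 0.20 with overlapping groups. Genes on the opposite strand cover 9.61% of its exon bases. Pcdh17 had 25.9, 24.7 and 12.9 CPM in Mir, against 17.5, 16.4 and 14.8 CPM in Scr, a log2 fold change of 0.38 ± 0.26. Mir replicate 3 was the lowest library and Mir replicates 1 and 2 the highest. Pcdh10, the gene with 4 seed matches shown above, had 34.3, 31.9 and 37.5 CPM in Mir, against 37.9, 38.2 and 38.6 CPM in Scr. Its Mir libraries all lay below the Scr libraries, but the difference was small, at -0.15 ± 0.11 on the log2 scale (edgeR adjusted p 0.563). Pcdh18 had a log2 fold change of -0.22 ± 0.15 with overlapping groups. Pcdh19 (ENSMUSG00000051323), an X-linked gene whose mutations cause an epilepsy in humans, had 6.49, 6.58 and 13.4 CPM in Mir, against 14.0, 36.4 and 11.0 CPM in Scr. Mir replicates 1 and 2 were the lowest and Scr replicate 2 the highest, and Mir replicate 3 lay above Scr replicate 3. The log2 fold change was -1.22 ± 0.50 (unadjusted edgeR p 0.0424, adjusted p 0.327), and without Scr replicate 2 it was -0.50. Its 6 libraries stood in the order of the summed endothelial markers, an order shared by 0.533% of all genes tested and by the summed Cajal-Retzius cell markers. Nhlh2 was the largest part of the Cajal-Retzius sum in every library, and its own log2 fold change was -0.07 ± 0.23. Of the 7 markers in that list, 4 had enough counts to be tested, and all 4 had a lower Mir mean, with a median of -0.80. Reln, among these 4, had a log2 fold change of -1.30 ± 0.35 (edgeR adjusted p 0.218), with all Mir libraries below all Scr libraries. The part of endothelial or Cajal-Retzius cells in the Pcdh19 difference was not tested.

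Of the other protocadherins outside the clusters, Pcdh20 had 4.58, 4.73 and 5.50 CPM in Mir, against 12.2, 5.36 and 6.08 CPM in Scr. Scr replicate 1 stood far above the others, and Mir replicate 3 lay between Scr replicates 2 and 3. The log2 fold change was -0.67 ± 0.34 (edgeR adjusted p 0.411), and without Scr replicate 1 it was -0.22. Pcdh15 had a log2 fold change of -0.05 ± 0.41 at about 1 CPM or less in every library.

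The 3 Celsr cadherins, seven-pass proteins of the planar polarity pathway, did not share a direction. Celsr1, the member of progenitor and epithelial planar polarity (ENSMUSG00000016028, chromosome 15, 85898929 to 86033777), had 186, 178 and 164 CPM in Mir, against 153, 82.0 and 125 CPM in Scr. It was the single member outside the clusters for which all Mir libraries lay above all Scr libraries (3.23% of those tested, against 9.72% of all genes). Scr replicate 2 was the lowest library. The means were 176 ± 11.3 CPM in Mir and 120 ± 35.7 CPM in Scr (SD, n = 3 each), a log2 fold change of 0.55 ± 0.21 with an unadjusted edgeR p of 0.0286 and an adjusted p of 0.295. Without Scr replicate 2 it was 0.34. Celsr2 had 159, 149 and 126 CPM in Mir, against 195, 127 and 140 CPM in Scr, a log2 fold change of -0.09 ± 0.17 in overlapping groups. Celsr3, needed in neurons for long axon tracts, had 52.3, 45.9 and 35.8 CPM in Mir, against 59.4, 55.7 and 46.7 CPM in Scr. Mir replicate 1 lay between Scr replicates 2 and 3, and the log2 fold change of Celsr3 was -0.27 ± 0.16 (edgeR adjusted p 0.480). The difference between Celsr1 and Celsr3 was not tested. Beside the Celsr1 values, radial glial and intermediate progenitor marker sums were also lowest in Scr replicate 2, and their part in the difference was not tested.

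Among the giant cadherins, Dchs1 and Fat4 form a ligand and receptor pair whose loss in mice and humans disturbs cortical neurons' positions. Dchs1 had 131, 99.2 and 92.5 CPM in Mir, against 127, 102 and 103 CPM in Scr, a log2 fold change of -0.04 ± 0.16. Its groups overlapped, with Mir replicate 1 the highest and Mir replicate 3 the lowest of all libraries. Fat4 had 26.6, 19.7 and 33.7 CPM in Mir, against 30.3, 44.2 and 34.0 CPM in Scr, with a log2 fold change of -0.44 ± 0.22 and an edgeR adjusted p of 0.413. Mir replicates 1 and 2 were the lowest and Scr replicate 2 the highest library. Genes on the opposite strand cover 5.86% of the exon bases of Dchs1 and 8.68% of those of Fat4. Fat3, best known for shaping amacrine cell dendrites in the mouse retina, (ENSMUSG00000074505) lies on chromosome 9 at 15910189 to 16501285. It had 18.3, 11.0 and 22.3 CPM in Mir, against 30.2, 29.4 and 29.1 CPM in Scr. The Scr libraries agreed closely, all 3 Mir libraries lay below them and Mir replicate 2 was the lowest. The means were 17.2 ± 5.72 CPM in Mir and 29.6 ± 0.567 CPM in Scr (SD, n = 3 each), a log2 fold change of -0.78 ± 0.24 with an unadjusted edgeR p of 0.0126 and an adjusted p of 0.249. Its DESeq2 adjusted p of 0.0585 was the smallest of any member. Leaving out 1 library at a time gave log2 fold changes of Fat3 from -1.03 to -0.54, and without Scr replicate 2 it was -0.79, so this difference did not rest on that library. Fat1, with 3.11% of its exon bases under a gene on the opposite strand, had a log2 fold change of 0.09 ± 0.14.

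**Figure D3:**
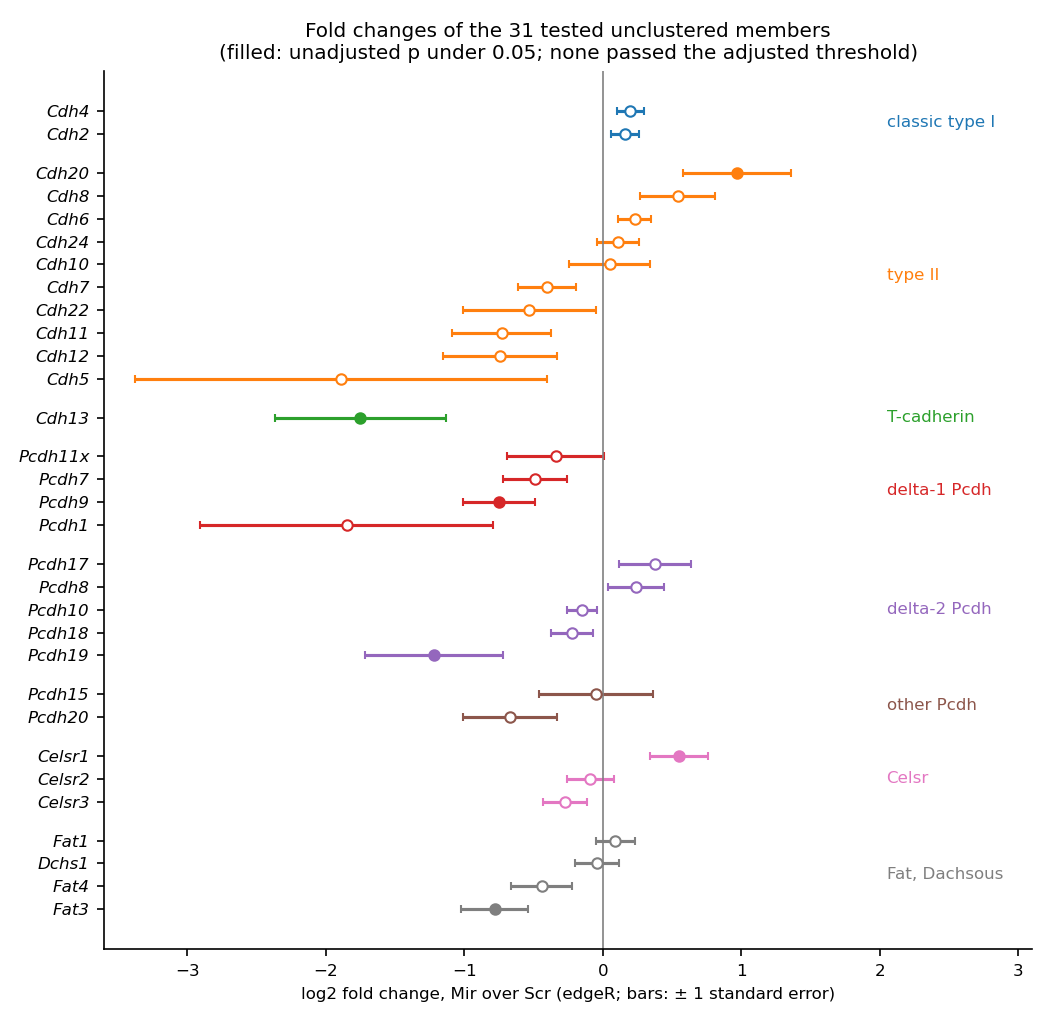
Fitted log2 fold change (Mir over Scr) with its standard error for the 31 tested members outside the clusters, grouped by role, with filled points for an unadjusted edgeR p under 0.05. The 2 classic type I cadherins lie above 0 and the 4 delta-1 protocadherins below it, and type II, delta-2 and Celsr members lie on both sides.

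**Figure D4:**
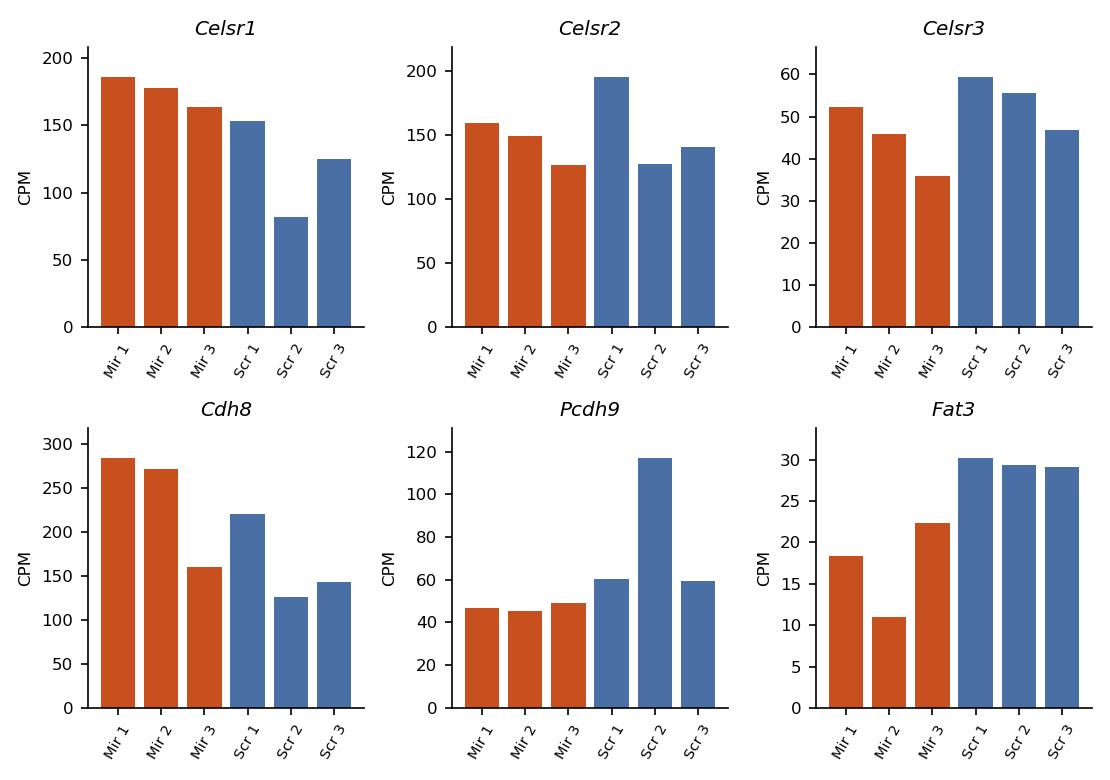
CPM of Celsr1, Celsr2, Celsr3, Cdh8, Pcdh9 and Fat3, a bar for each library, Mir in orange and Scr in blue, each axis starting at 0. The 3 Mir bars stand above the 3 Scr bars for Celsr1 and below them for Pcdh9 and Fat3, and overlap with them for Celsr2, Celsr3 and Cdh8.

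The clustered protocadherins lie side by side on chromosome 18. Each neuron uses a few of their promoters, so that the combination differs from cell to cell, and CTCF and cohesin act in that choice. In the annotation, Pcdha genes shared from 38.9 to 91.4% of their exon bases with other genes on the same strand, and Pcdhg genes from 31.5 to 66.8%, so reads in the shared exons could not be given to a single gene. At most 0.376% of a library's listed total was ambiguous, a share over all genes. The Pcdhb genes share almost no exon bases but are similar in sequence. Reads that matched several of them would stand among the 39.3 to 44.4% of the listed total that was not uniquely aligned. Values of single clustered genes are therefore uncertain, and the sum over each cluster was tested over the libraries, where 3 against 3 cannot give an exact p below 0.1. The sum adds the same counts, so reads listed as ambiguous or not uniquely aligned are missing from it as well.

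Over the 22 genes of the Pcdhb cluster the sum was 83.6, 71.9 and 72.0 CPM in Mir, against 86.2, 154 and 85.1 CPM in Scr. All 3 Mir libraries lay below the 3 Scr libraries, but Mir replicate 1 was close to Scr replicates 1 and 3, and Scr replicate 2 stood far above. The means were 75.8 ± 6.70 CPM in Mir and 109 ± 39.7 CPM in Scr (SD, n = 3 each), a log2 difference of -0.46 with an exact two-sided permutation p of 0.1, the smallest possible. Without Scr replicate 2 the log2 difference was -0.18. Of the 20 Pcdhb members, 19 had a fitted value below 0, with a median of -0.51, and 5 (25%, against 10.3% of all genes) had all Mir libraries below all Scr libraries. Without Scr replicate 2, 13 of the 20 were below 0. That library was the highest for 17 of the 20 Pcdhb members (85%) and for 7 of the 8 Pcdha members (87.5%), against 4 of the 21 Pcdhg members (19%) and 25.2% of all genes. Relative to the Scr mean on the log2 scale, the median Pcdhb member stood at -0.30, -0.51 and -0.53 in Mir and at -0.28, 0.58 and -0.30 in Scr. Cortical neuron markers summed to 5097, 4582 and 5107 CPM in Mir and to 5521, 6984 and 5774 CPM in Scr, also highest in Scr replicate 2, and the part of neurons in the Pcdhb values was not tested.

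Among single Pcdhb genes, Pcdhb8 had 4.64, 3.77 and 3.87 CPM in Mir, against 6.15, 7.75 and 6.62 CPM in Scr, from 57 to 110 counts. Its groups did not overlap and no library stood apart, and its log2 fold change was -0.74 ± 0.22 with an unadjusted edgeR p of 0.0109. Its adjusted p of 0.244 was the smallest edgeR value of any member. Pcdhb17 was the highest Pcdhb gene per length, with 19.0, 13.5 and 12.3 CPM in Mir, against 19.2, 26.8 and 16.1 CPM in Scr. It took 19.6 ± 2.83% of the cluster's counts in Mir and 19.5 ± 2.53% in Scr (SD, n = 3 each), less than 1 SD apart.

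Over the 14 Pcdha genes the sum was 20.7, 17.8 and 18.3 CPM in Mir, against 15.8, 34.5 and 18.4 CPM in Scr. Scr replicate 2 was the highest and Scr replicate 1 the lowest, the log2 difference was -0.19 and the exact two-sided permutation p was 0.8. Without Scr replicate 2 the difference was 0.14. Of the 8 Pcdha members, 7 had fitted values below 0, against 2 without Scr replicate 2 and 4 without Mir replicate 2. The C-type genes, Pcdhac1 and Pcdhac2, form a class apart from the other Pcdha genes by sequence. They took 31.9, 25.2 and 28.5% of the cluster's counts in Mir, against 28.1, 22.4 and 25.2% in Scr, in overlapping groups. Their log2 fold changes were -0.34 ± 0.43 for Pcdhac1 and 0.11 ± 0.44 for Pcdhac2. A pair of genes carry the symbol Pcdha11. ENSMUSG00000102206, the one with more counts, averaged 3.85 ± 0.825 CPM in Mir and 4.04 ± 1.72 CPM in Scr (SD, n = 3 each). Genes on the opposite strand cover 44.3% of its exon bases.

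Over the 21 Pcdhg genes the sum was 167, 167 and 165 CPM in Mir, against 181, 184 and 132 CPM in Scr. The Mir libraries were close together and lay inside the range of the Scr libraries, with a log2 difference of 0.02 and an exact two-sided permutation p of 1. Fitted values were above 0 for 9 members and below 0 for 12, with a median of -0.05. The C-type gene Pcdhgc3, which is found in many cell types beside neurons, was the highest Pcdhg gene per length. Pcdhgc3 had 32.2, 30.9 and 45.6 CPM in Mir, against 22.9, 58.1 and 23.2 CPM in Scr. It took 19.3, 18.5 and 27.6% of the cluster's counts in Mir, against 12.6, 31.5 and 17.6% in Scr, with the highest and the lowest share both in Scr libraries. Genes on the opposite strand cover 28.4% of its exon bases. Pcdhgc4, the isoform needed for neuronal survival in mice, had 19.3, 14.9 and 13.8 CPM in Mir, against 20.4, 17.7 and 15.0 CPM in Scr, and Pcdhgc5 had 4.58, 3.51 and 2.71 CPM in Mir, against 4.99, 3.69 and 2.89 CPM in Scr. The groups of both genes overlapped. Pcdhgb7 had 17.2, 16.9 and 16.4 CPM in Mir, against 14.6, 12.2 and 10.6 CPM in Scr. All its Mir libraries lay above all its Scr libraries, the log2 fold change was 0.44 ± 0.17, the unadjusted edgeR p was 0.0337 and the adjusted p was 0.311. Genes on the opposite strand cover 16.4% of its exon bases.

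**Figure D5:**
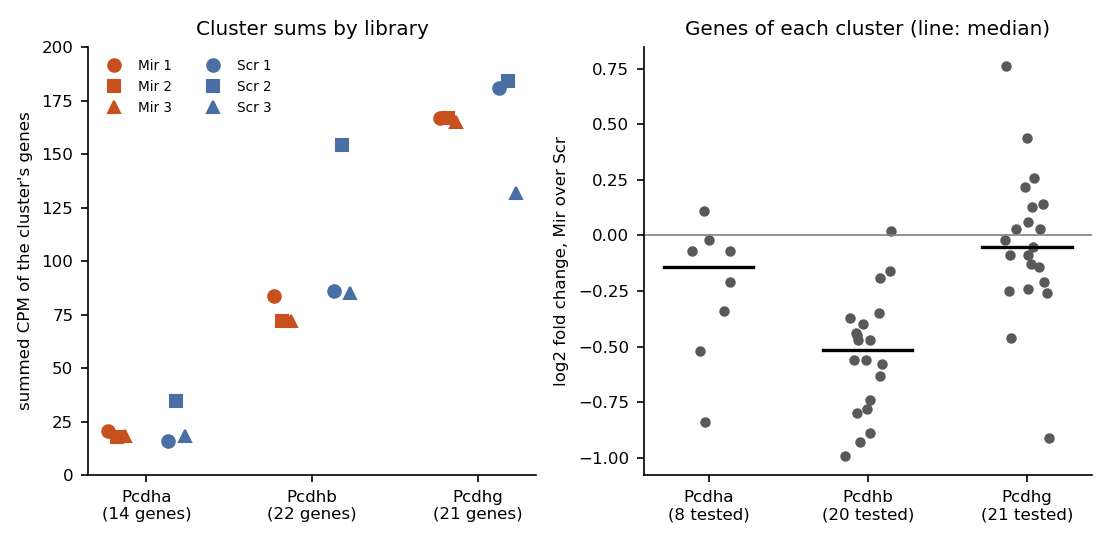
Left, summed CPM of all genes of the Pcdha, Pcdhb and Pcdhg clusters in each library, with Mir in orange and Scr in blue. Right, the log2 fold change (Mir over Scr) of each tested gene with the median as a line, where nearly all Pcdhb genes lie below 0 and Pcdhg genes lie on both sides.

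Genes that work with cadherins were read from the same fit as 6 lists, and no gene of these lists passed the edgeR adjusted threshold. Of 12 tested catenins and junction adaptors, 5 had higher and 7 lower Mir means, and 2, both higher, had an unadjusted edgeR p under 0.05 (6.57% of all genes). These were Ctnna1 (alpha-catenin, the link to actin) and Ctnnb1 (beta-catenin, which binds the cadherin tail and also carries Wnt signals). Ctnna1 had 184, 199 and 183 CPM in Mir, against 150, 126 and 138 CPM in Scr, without overlap, or 0.45 ± 0.09 on the log2 scale, at an adjusted p of 0.198 in edgeR and 0.0047 in DESeq2. Ctnnb1 had 1224, 1218 and 1168 CPM in Mir, against 995, 989 and 983 CPM in Scr, also without overlap, at a DESeq2 adjusted p of 0.0058. Both were past the DESeq2 threshold, which 1.38% of all genes passed in that direction. The classic cadherins Cdh2 and Cdh4 had DESeq2 adjusted p of 0.528 and 0.431. Whether the fold changes of the catenins and the cadherins differ was not tested.

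Of 13 tested planar polarity partners of Celsr proteins, 6 had higher and 7 lower Mir means, with 2 and 3 of them at an unadjusted edgeR p under 0.05 (6.57% and 7.93% of all genes). Dvl2 and Ankrd6, cytoplasmic proteins of the pathway, had log2 fold changes of 0.36 ± 0.12 and 0.42 ± 0.15. The libraries of Ankrd6 stood in the order of the summed intermediate progenitor markers, as did 0.562% of all genes, and the part of those cells was not tested. Fzd3, the receptor that acts with Celsr3 in axon tracts, had 169, 179 and 168 CPM in Mir, against 280, 263 and 253 CPM in Scr. These groups lay far apart, with a log2 fold change of -0.63 ± 0.08, an edgeR adjusted p of 0.159 and a DESeq2 adjusted p of 8.31e-09. Prickle2 (3.56, 2.81 and 2.65 CPM in Mir, against 5.14, 7.24 and 5.06 CPM in Scr) was also lower without overlap, and Fzd6 had a log2 fold change of -1.62 ± 0.59.

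Of 8 tested partners of Fat and Dachsous, 4 had higher and 4 lower Mir means, and 1 higher and 3 lower were at an unadjusted edgeR p under 0.05 (6.57% and 7.93% of all genes). Taok1, a kinase upstream of Hippo signalling, had 90.6, 108 and 92.8 CPM in Mir, against 141, 139 and 148 CPM in Scr, without overlap. Its log2 fold change was -0.55 ± 0.10, at an adjusted p of 0.168 in edgeR and 0.000265 in DESeq2. Lix1l and Lix1 had log2 fold changes of -0.48 ± 0.16 and -0.34 ± 0.12, and Wwc1 (Kibra) one of 0.31 ± 0.09. Among 17 tested protocadherin effectors and promoter regulators, which include the WAVE complex, CTCF and cohesin, 8 had higher and 9 lower means and none had an unadjusted p under 0.05. Ctcf itself had 223, 213 and 216 CPM in Mir, against 220, 197 and 208 CPM in Scr, with overlapping groups.

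The list of cadherin-domain genes with other names had 3 tested of 13, the calsyntenins Clstn1, Clstn2 and Clstn3, with 1 higher and 2 lower means and no unadjusted p under 0.05. Of 7 tested cadherin repressors and proteases, 3 had higher and 4 lower means, and 2 lower were at an unadjusted edgeR p under 0.05 (7.93% of all genes). Zeb2, a repressor of Cdh1 in epithelia, had 118, 106 and 150 CPM in Mir, against 168, 254 and 185 CPM in Scr. All Mir libraries lay below all Scr libraries, with a log2 fold change of -0.70 ± 0.19 and an adjusted p of 0.223 in edgeR and 0.0175 in DESeq2, which called 1.91% of all genes lower. The 6 libraries stood in the same order for Zeb2 as for the summed cortical neuron markers, as they did for 1% of all genes, and the part of neurons in the Zeb2 values was not tested. Adam10, a protease that cuts N-cadherin and several protocadherins, had 69.4, 59.1 and 71.8 CPM in Mir, against 93.6, 88.1 and 74.8 CPM in Scr, and a log2 fold change of -0.36 ± 0.12 (edgeR adjusted p 0.272).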

How the data were processed

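Per the labels' protocols, SMART-seq v4 libraries of sorted cells were read as single ends of 50 bp. The deposited values were raw counts of reads per gene. Per the submitters' processing notes the tools included DESeq2 1.18.1, HTSeq 0.11.0 and HISAT2 2.1.0, on mm10 (GRCm38). Neither annotation nor strand setting is given in the sources used here. Symbols, positions, exon lengths and 3' UTRs came from GENCODE M21, matched by gene ID. Rows that name no gene stayed out of library sizes. Of a library's listed total, 28.8 to 31.6% had no feature, 39.3 to 44.4% was not unique and 4.48 to 5.48% not aligned. Whether a read with several alignments was listed more than once is not given.

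All 6 libraries entered one edgeR 4.0.16 quasi-likelihood fit (filterByExpr, TMM, R 4.3.3), Mir over Scr, with Benjamini-Hochberg adjustment over 16897 genes and a threshold of 0.05. Same-numbered libraries correlated at 0.224, -0.148 and -0.103 in their deviations from the group means, so the numbers were not taken as pairs. Cluster sums were compared by exact two-sided permutation. Alternatives were DESeq2 1.42.0, limma-voom 3.58.1, other size factors, other filters, a replicate block and leaving out libraries. The fit was first tested on simulated data. There it called 26 of 49 genes made 1 log2 unit higher in Mir and 29 of 50 made 1 lower. At 2 log2 units it called 43 of 50 and 46 of 50, and among unchanged genes 4 of 16376. Changes of 1 log2 unit can therefore go uncalled. Floors of 3 counts cover counting error only. The members, the marker and pathway lists and the tests were chosen with earlier results of these data known. Named members outside the clusters were those at an unadjusted p under 0.05, those without overlap between groups, the 2 highest per kb of each role and 10 genes of known role in this tissue. Named clustered genes were the C-type genes, the highest of each cluster and up to 3 of smallest p under 0.05; list genes were up to 4 at p under 0.05, and markers the highest of a list. Others, such as Cdh6, Cdh7, Cdh11, Cdh12, Pcdh1, Pcdh17, Fzd6, Ctcf and the calsyntenins, were named after their values were seen.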

Additional observations from a re-analysis of the deposited data

How the results depend on the processing

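Leaving out 1 library at a time moved the counts at an unadjusted p under 0.05 outside the clusters from 0 to 4 (higher in Mir; 2 with all libraries) and from 1 to 8 (lower; 4). In the clusters such counts ran from 0 to 1 for Pcdha lower, 1 to 3 for Pcdhb lower, 0 to 1 for Pcdhg lower and 0 to 1 for Pcdhg higher, and Pcdha members below 0 from 2 to 8. All genes called lower ran from 0 to 2. Of 419 values for 30 named members under the alternatives, 392 kept sign and side of the threshold and 26, in 9 members, changed sign; the cause was not tested.

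The Pcdha sum ran from -0.42 to 0.14 and the Pcdhg sum from -0.13 to 0.10. Log2 fold changes ran from -0.21 to 0.07 for Dchs1, -0.26 to 0.34 for Pcdha11 (ENSMUSG00000102206, here and in the values that follow), -0.16 to 0.58 for Pcdhac2, -0.16 to 0.65 for Pcdhgc3, -0.30 to 0.13 for Pcdhgc5, -0.20 to 0.17 for Pcdh15, -0.21 to 0.11 for Celsr2 and -0.11 to 0.30 for Cdh10. That of Cdh5, with 0 counts in Mir replicates 1 and 2, ran from -8.36 to -0.93.

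Leaving out Scr replicate 2 and Mir replicate 3 together gave 10 genes called higher and 19 lower, 1 of them a member (Cdh13), 4 members outside the clusters higher and 8 lower at an unadjusted p under 0.05, 1 Pcdhg member lower, 1 Pcdha member below 0, a median of -0.12 outside the clusters and a Pcdha sum of 0.17. Dchs1 was then at 0.00, Pcdha11 at 0.44, Pcdhac1 at 0.02 and Pcdhgc5 at 0.05. That setting left 2 libraries in each group and removed the overlap between groups for Cdh13. With no filter, 15 genes were called higher and 16 lower, 8 members outside the clusters were lower at an unadjusted p under 0.05, and 2 Pcdhb members, as with upper-quartile factors. DESeq2 called 233 genes higher and 322 lower. Limma-voom called 0 lower and gave 1 member outside the clusters higher, 2 Pcdhb and 1 Pcdhg lower at an unadjusted p under 0.05, 4 Pcdha members below 0 and Pcdha11 at 0.01.

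The same-numbered libraries did not deviate together. With the replicate number as a block, 0 genes were called lower and 2 Pcdhb members were lower at an unadjusted p under 0.05; no member was called.

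The biological coefficient of variation was 23.6%. A count of 0 allows between 0.181 and 0.234 CPM, depending on the library. Cdh18 was below the filter and was not tested.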
